A study of Oryza sativa with 10 samples.

Results

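BioTASQ in vivo capture gave 22134 genomic regions in rice seedlings that no row of either in vitro list overlapped. They were chosen by pooling the distinct rows of the peak lists of BioTASQ in vivo, BioCyTASQ in vitro and BioTASQ in vitro, merging rows that overlap by at least 1 bp, and keeping the merged regions that hold in vivo rows only. They made up 25.2% of the 87915 merged regions and 40.3% of the 54897 regions that hold an in vivo row. Each of them consisted of a single row, so they were also 38.5% of the 57500 in vivo rows. The remaining 35366 in vivo rows lay in 32763 regions that also held an in vitro row, and are called shared rows and shared regions below.

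G-quadruplexes are four-stranded structures in which guanine bases form flat quartets, stacked and held by potassium ions, and guanine-rich stretches of promoters, telomeres and other DNA can fold into them. TASQs are small molecules that carry guanines on a template and can form a quartet of their own, which stacks on the outer quartet of a G-quadruplex. BioTASQ and BioCyTASQ are TASQs with a biotin, so that DNA bound to them can be pulled down on streptavidin beads. In chromatin, proteins and nucleosomes also affect which sequences can fold or be reached.

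The series had 10 libraries of 2-week-old seedlings of the japonica cultivar Nipponbare, all cross-linked with 1% formaldehyde for 10 min. BioTASQ in vivo, BioTASQ in vitro and BioCyTASQ in vitro had 2 libraries each, and the in vivo and the in vitro set each had 1 library of biotin alone and 1 of input. The labels call the replicates biological, give no further difference between vivo and vitro, and describe 1 protocol, on chromatin, for every library. Each capture had 1 deposited peak list, so no value below has an error between seedlings, and the spread over 12 chromosomes is given in its place.

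The file named for in vitro BioTASQ and the one named for BG4, an antibody against G-quadruplexes, were identical over all 29469 rows, and no library is labelled BG4. Its rows bear names that begin with K_PEG_flag, whereas in vivo row names begin with Vivo_biotin3_0001 and BioCyTASQ names with BiocyTASQ_vitro_biotin. It is called the BG4/BioTASQ in vitro list here, and which capture it came from was not settled. The lists also had unequal thresholds. The lowest −log10 q was 3.01 in the in vivo list, 1.31 in the BioCyTASQ list and 3.0 in the BG4/BioTASQ in vitro list. A region captured only in vivo is therefore one without an in vitro call, and not one shown to lack in vitro signal. Genes and sequences at these regions were not analysed here, because no genome of the build of the lists was used.

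The regions captured only in vivo were spread over all 12 chromosomes. Chromosome 1 had the most, 2932 regions, and chromosome 12 the fewest, 1357. Per Mb the number was 58.8 ± 5.22 (mean ± SD, n = 12 chromosomes), and ran from 49.3 on chromosome 12 to 67.8 on chromosome 1. They covered 7.78 Mb, which was 31.5% of the 24.7 Mb in in vivo rows. As a share of the in vivo rows of a chromosome they were most frequent on chromosome 3, with 42.1%, and on chromosome 1, with 41.9%, and least frequent on chromosome 12, with 34.2%, and chromosome 8, with 34.5%.

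Capture at these regions was weaker than at shared rows. Fold enrichment, the authors' ratio of a peak to its control, had a median of 4.02 in rows captured only in vivo, with 3.34 and 4.82 at the quartiles, against 4.66 in shared rows, with 3.90 and 5.49. A fold of at least 5 was found in 4590 rows captured only in vivo, or 20.7% (SD 2.54 over 12 chromosomes), against 38.8% (SD 1.32) of shared rows and 31.9% of all in vivo rows. The distributions overlapped widely. These values come from the same calls that chose the regions, so they are given without a test. The median −log10 q was 20.7 in rows captured only in vivo and 27.4 in shared rows, and 90.4% of the rows captured only in vivo had a −log10 q of at least 10, so most were not near the threshold of the in vivo list.

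Among shared rows, those met by the BG4/BioTASQ in vitro list alone were closest in fold to the rows captured only in vivo. Their median fold enrichment was 4.08, against 4.64 for rows shared with BioCyTASQ alone and 4.92 for rows in regions of all 3 lists. The share with a fold of at least 5 was 20% in the first of these groups, 38.2% with BioCyTASQ alone and 47.4% in all 3 lists. The median fold of regions captured only in vivo also varied more between chromosomes (3.84 to 4.21, SD 0.102) than that of shared rows (4.60 to 4.72, SD 0.0308). It was highest on chromosome 1 and lowest on chromosome 12, the chromosomes with the most and the fewest such regions per Mb.

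Rows captured only in vivo were also narrower. Their median width was 280 bp, with 5% under 162 bp and 5% over 789 bp, against a median of 391 bp in shared rows. A wider row has more bases that can overlap an in vitro row, so width and the rule are tied. Ordered by width in 5 groups of 11500 rows, the share captured only in vivo was 55.2% of the narrowest (5 to 214 bp) and 22.2% of the widest (587 bp and more). Ordered by fold enrichment, the share was 57.8% (SD 2.02) of the weakest and 22.8% (SD 3.85) of the strongest group, whose folds started at 5.48. Within each group by fold the share fell from the narrowest to the widest rows. Within each group by width it was lower for the strongest than for the weakest folds, but did not fall at every step. Among rows both weakest and narrowest 62.7% of 5253 were captured only in vivo, and among rows both strongest and widest 19.9% of 5413. In the narrowest group the share was 44.9% in group 4 of 5 by fold (810 rows) and 47.7% in the strongest group (373 rows).

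The control level of these regions was higher than that of all shared rows, but close to that of rows met by the BG4/BioTASQ in vitro list alone. Pileup, the number of fragments at the peak summit, and the level expected from the control were recovered from fold enrichment and −log10 p. The lowest control level in the list was 15.7 fragments, shared by many rows and called the control floor here. MACS2 takes a genome-wide background as the minimum of its local control. At this floor were 6885 rows captured only in vivo, or 31.1% (SD 2.44), against 47.8% (SD 2.98) of shared rows and 41.4% of all in vivo rows. A control level over 20 fragments was found in 8.77% of rows captured only in vivo and 3.75% of shared rows. Rows met by the BG4/BioTASQ in vitro list alone had 28.6% at the floor and 7.02% over 20 fragments, and rows shared with BioCyTASQ alone 51.8% and 3.16%. In every width group fewer rows captured only in vivo than shared rows were at the floor, from 28.2% against 48.3% in the narrowest to 40.9% against 52.7% in the widest group. The pileup was lower as well, with a median of 71 fragments in rows captured only in vivo and 80 in shared rows. Rows captured only in vivo thus had fewer fragments at the summit over a control that was more often above the floor. The part of the control in the missing in vitro calls was not tested.

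**Figure D1:**
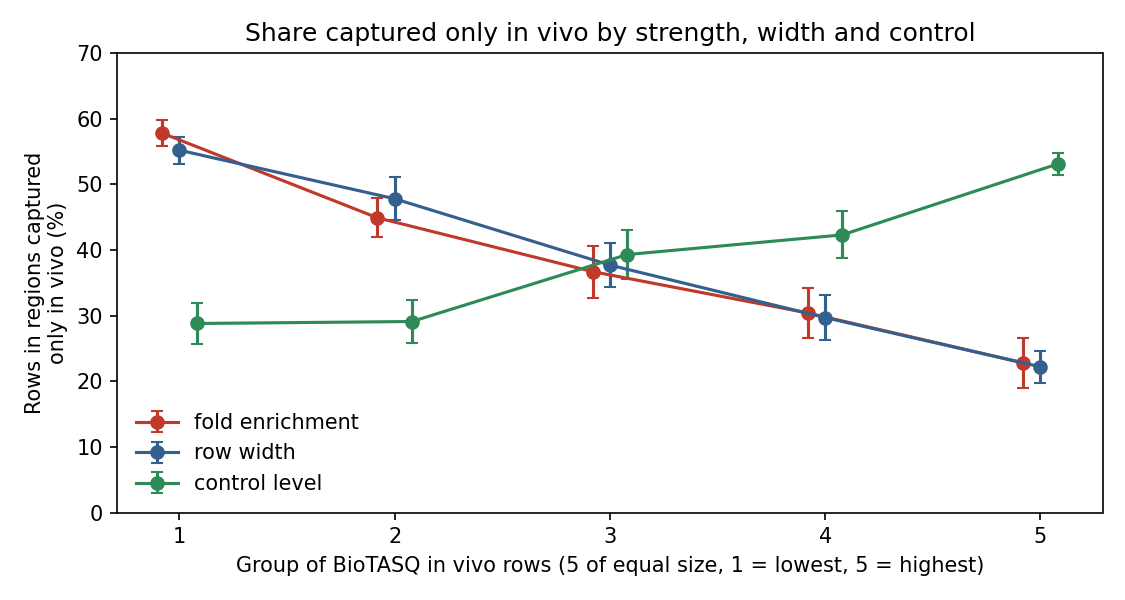
Share of BioTASQ in vivo rows captured only in vivo (%) in 5 groups of 11500 rows, ordered from lowest to highest by fold enrichment, row width or recovered control level. Points are the share over all rows and bars the SD over 12 chromosomes. The share falls with fold enrichment from 57.8 to 22.8% and with width from 55.2 to 22.2%, and is 53.1% at the highest control levels against 28.8% at the lowest. By control level, all rows of groups 1 and 2 and part of group 3 are at the control floor. The order among those rows therefore has no meaning, and group 2 had 29.1%.

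The strongest region captured only in vivo lay on chromosome 11 (5028143 to 5028668), with a fold enrichment of 11.3 and a pileup of 189 fragments. Its peak had been deposited in 2 rows, and the second row (5028854 to 5029321) carried the same fold and was captured only in vivo too. The first row is 526 bp wide and its deposited summit offset is 1144 bp, so the fold and the pileup are those of the peak, at a summit outside that row if the offset counts from the row's start. The nearest in vitro row was 21869 bp away, in the BG4/BioTASQ in vitro list. Another strong region of chromosome 11 (11595386 to 11596039) had a fold of 9.46 with a pileup of 159, and 11444 bp to the nearest in vitro row. Both lay farther from an in vitro row than 95.4% of the regions captured only in vivo, which had one within 10 kb.

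On the other chromosomes the strongest region had a fold between 7.82 and 8.72. The highest of them were on chromosome 1 (30293946 to 30295722) with 8.72, chromosome 9 (19333149 to 19334942) with 8.54, chromosome 5 (7256331 to 7256957) with 8.48 and chromosome 4 (14680168 to 14681393) with 8.3. All of these stood at the control floor of 15.7 fragments, with pileups from 138 to 145, and between 2269 and 5173 bp from an in vitro row. Those of chromosome 3 (25309656 to 25309852, fold 8.24), chromosome 8 (5681964 to 5682882, fold 8.2), chromosome 2 (19954984 to 19955455, fold 8.06) and chromosome 6 (13097621 to 13098161, fold 8.0) followed. The lowest were on chromosome 10 (20830328 to 20830768) with 7.94, chromosome 7 (23491892 to 23492610) with 7.88 and chromosome 12 (1745257 to 1746336) with 7.82. The leading rows of chromosomes 3, 7 and 10 also had a summit offset beyond their end, of 1683, 1880 and 1839 bp in rows of 197, 719 and 441 bp, so that their folds too belong to the whole peak.

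The strongest regions were not all distant from in vitro capture. The region on chromosome 2 ended 81 bp from a BG4/BioTASQ in vitro row. The leading rows of chromosomes 3 and 10 were pieces of peaks whose other row lay in a shared region, 316 and 744 bp from the nearest in vitro row. Without such pieces, 10 of the 12 chromosomes kept the same leading region.

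By −log10 q, the strongest region of chromosome 11 came first with 126, and the next 2 had a control level above the floor. On chromosome 10 (2950483 to 2950773) a −log10 q of 113 came from 238 fragments over a control level of 32.9, a fold of 7.05. On chromosome 2 (19420185 to 19420658) it was 105, from 252 fragments over 40.9, a fold of 6.04. These pileups were the highest of the 5 regions with the highest −log10 q, while the folds were the lowest of them. The widest regions captured only in vivo were 2463 bp on chromosome 9 (21544663 to 21547125, fold 7.0), 2453 bp on chromosome 6 (1172652 to 1175104, fold 6.49) and 2291 bp on chromosome 3 (33200615 to 33202905, fold 4.84). Each of these had a BioCyTASQ row within 1166 bp or less.

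Most regions captured only in vivo lay within a few kb of an in vitro row without overlapping one. The median distance to the nearest in vitro row was 1989 bp, with 747 and 4345 bp at the quartiles. Within 500 bp were 3875 regions, or 17.5%, and beyond 10 kb were 1020, or 4.61%. The nearest row was of BioCyTASQ for 63.7% and of the BG4/BioTASQ in vitro list for 36.3%, where BioCyTASQ had more rows to be near to, 49898 against 29443. Medians to each list were 2990 bp for BioCyTASQ and 5120 bp for the BG4/BioTASQ in vitro list. Very close pairs were more often with the second list: 621 regions had one of its rows within 100 bp, against 342 with a BioCyTASQ row.

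Regions near and far from in vitro rows had almost the same strength. The median fold was 4.12 at distances up to 200 bp, 4.04 from 2001 to 5000 bp and 3.90 beyond 10 kb. The control level differed more, with 42.2% of regions at the floor up to 200 bp, 29.3% from 2001 to 5000 bp and 19.2% beyond 10 kb. The most distant regions were on chromosome 1 (2296908 to 2297877), 38618 bp from an in vitro row with a fold of 5.73, on chromosome 2 (975838 to 975998), 38061 bp away with 2.49, and on chromosome 11 (26410650 to 26410844), 34399 bp away with 3.13. The chromosome 1 row was 970 bp wide with a summit offset of 1058 bp, so its fold too belongs to the whole peak.

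At the edge of the rule, rows just inside had lower median folds than rows just outside. Inside, 11 rows adjoined an in vitro row without overlap, with a median fold of 4.13, among them rows on chromosome 11 (886797 to 887395, fold 5.97), chromosome 2 (35253287 to 35253754, fold 5.61) and chromosome 5 (19977315 to 19977761, fold 5.37). Outside, 14 in vivo rows overlapped an in vitro row by 1 bp, with a median fold of 4.55, among them rows on chromosome 6 (10564997 to 10565330, fold 5.73), chromosome 1 (7660826 to 7661343, fold 5.67) and chromosome 4 (24360219 to 24360436, fold 5.48). The rows named on both sides had folds above these medians, so they do not show the difference. The named inside rows of chromosomes 2 and 5 were also pieces of peaks whose other row lay in a shared region. The chromosome 2 row was 468 bp wide with a summit offset of 1241 bp, so its fold belongs to the whole peak. Up to 10 bp from the edge there were 142 rows inside and 89 outside, with median folds of 4.12 and 4.33. The difference was not tested.

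**Figure D2:**
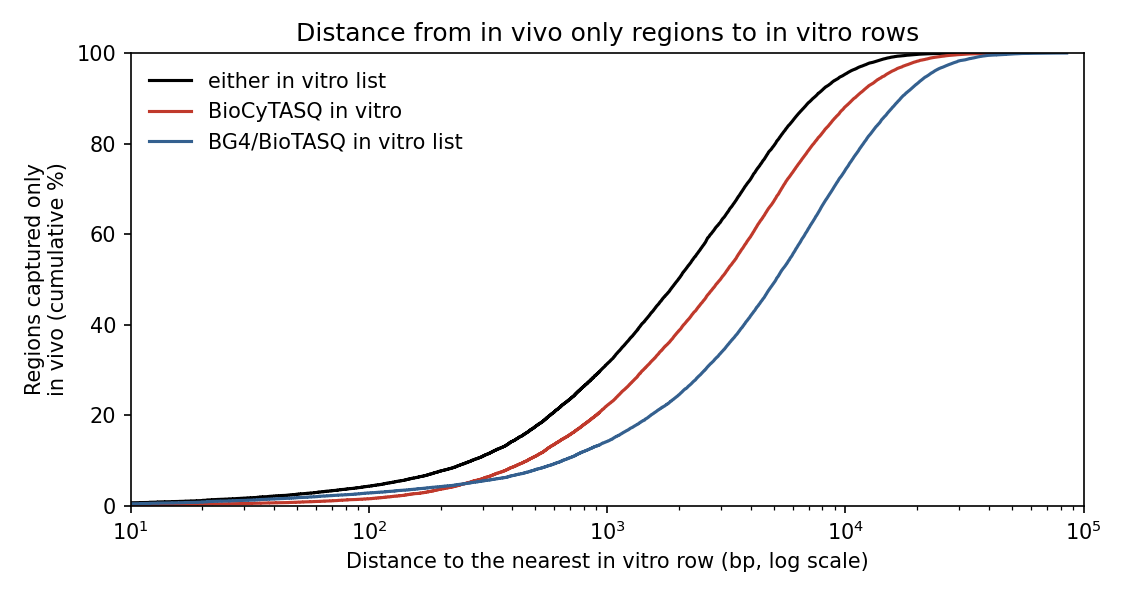
Cumulative percent of the 22134 regions captured only in vivo against the distance to the nearest in vitro row (bp, log scale), for either in vitro list and for each list alone. The median is 1989 bp for either list, 2990 bp for BioCyTASQ in vitro and 5120 bp for the BG4/BioTASQ in vitro list, and 95.4% of regions lie within 10 kb of an in vitro row.

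Along the chromosomes, the share of in vivo rows captured only in vivo was lowest in the inner part and highest at the end. Each chromosome was divided into 10 segments of equal length from its first to its last base. The share was 40% ± 6.32 in segment 1, 32.5% ± 5.69 in segment 4 and 44.0% ± 4.1 in segment 10 (mean ± SD, n = 12 chromosomes). It was higher in segment 10 than in segment 4 on 12 of 12 chromosomes, and higher in segment 1 than in segment 4 on 10 of 12. Segments were compared after their values were known, so no test is given.

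In segment 4 regions captured only in vivo were close to their lowest density, while shared rows and BioCyTASQ rows were at their highest. Over all chromosomes there were 59.8 regions captured only in vivo per Mb in segment 1, 51.2 in segment 4, 71.0 in segment 8 and 63.0 in segment 10. Shared in vivo rows had 89.4, 105, 98.0 and 79.7 per Mb in the same segments. BioCyTASQ rows had 121, 163, 129 and 106, and the BG4/BioTASQ in vitro list had 72.1, 91.9, 74.0 and 65.8. Fewer in vivo rows can lack an overlap where in vitro rows are dense, so the rule ties these figures to each other. The median fold of regions captured only in vivo was 3.81 in segment 4 and 4.23 in segment 10, and 24.8% and 35.2% of them were at the control floor. For shared rows the median fold was 4.65 and 4.72 in these segments, with 46.1% and 53.6% at the floor.

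**Figure D3:**
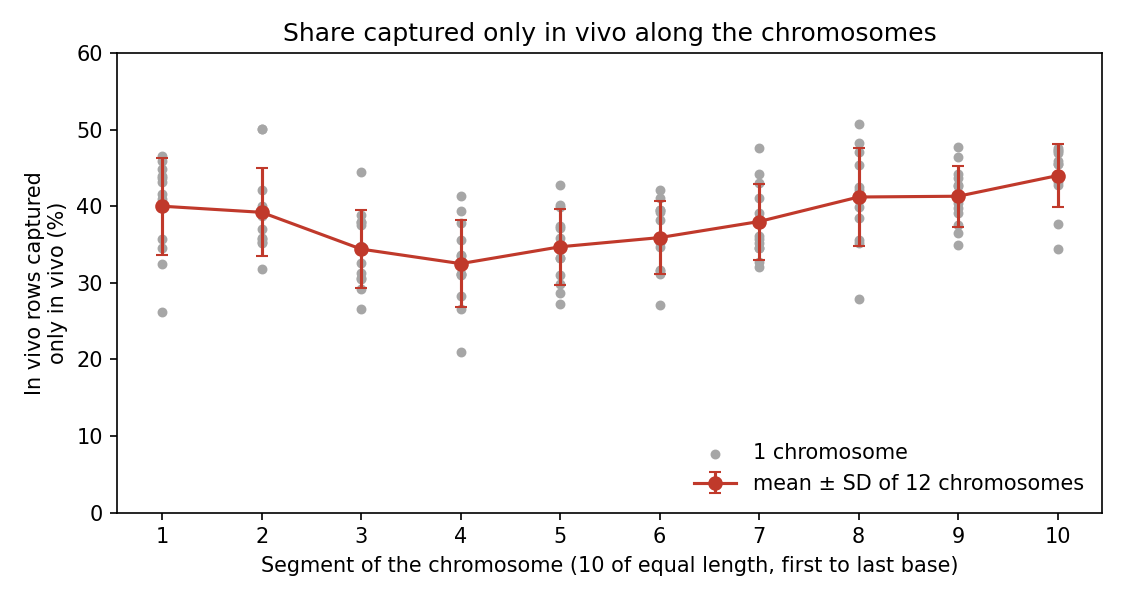
Share of BioTASQ in vivo rows captured only in vivo (%) in each of 10 segments of equal length along the chromosome. Grey points are single chromosomes, red points and bars the mean ± SD of 12 chromosomes. The mean is lowest in segment 4 (32.5%) and highest in segment 10 (44.0%).

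Locally the share ranged widely. Over 375 windows of 1 Mb with at least 50 in vivo rows, it ran from 14.0% to 60% with a median of 38.4%. The highest was on chromosome 3 between 5 and 6 Mb, with 81 rows captured only in vivo beside 54 shared rows, followed by 54.5% on chromosome 11 between 4 and 5 Mb and 53.1% on chromosome 1 between 37 and 38 Mb. The lowest was on chromosome 6 between 18 and 19 Mb, with 25 rows captured only in vivo beside 153 shared rows. Of the 5 windows with the lowest share, 3 adjoined each other on chromosome 5, between 9 and 12 Mb, at 19.3 to 22.0%. These windows held 225 to 263 BioCyTASQ rows, against 70 in the window with the highest share. Across the windows the number of rows captured only in vivo and the number of shared rows had a Spearman rho of 0.00933, a description over neighbouring windows of the same list.

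Regions captured only in vivo also stood in runs, as a group that makes up 40.3% of in vivo regions will. Whether the runs were longer than that share gives was not tested. Neighbouring regions captured only in vivo were a median of 9502 bp apart, and 12.1% of the gaps were under 1 kb. Some neighbours were pieces of 1 peak, as the 22134 regions had 20876 peak names. Read in order along the chromosomes among all in vivo regions, 6673 (30.1%) stood alone between shared regions, and 3569 (16.1%) belonged to runs of 5 or more. The longest runs had 14 regions, on chromosome 3 over 132 kb (1021742 to 1153553) and on chromosome 9 over 61.4 kb (21781188 to 21842616). A run of 13 on chromosome 10 (15240189 to 15282103) lay in the richest window of 100 kb, which held 23 regions captured only in vivo beside 8 shared rows, against a mean of 5.92 per window. The next richest windows, with 20 such regions each, were on chromosome 1 from 41500001 and on chromosome 4 from 24700001, 26600001 and 27600001. Regions in the chromosome 10 window had a median fold of 4.0, close to the 4.02 of all regions captured only in vivo, and those in the chromosome 1 window 4.79.

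The deposited rows were in part pieces of peaks, which bears on what a region captured only in vivo is. The 57500 in vivo rows had 53140 peak names, and 3795 names had more than 1 row, up to 7. The numbers in these names ran up to 81699, and 65.0% of the numbers were present. If peaks were numbered consecutively, the deposited list lacks some called peaks, and all counts here are of the deposited rows. Each piece carries the fold enrichment and −log10 q of its whole peak. Of the rows captured only in vivo, 3413 (15.4%) were pieces of such split peaks, against 13.4% of shared rows and 14.2% of all in vivo rows. In 1202 of them (5.43%) another piece of the same peak lay in a shared region, so that the peak as a whole did overlap an in vitro row or a region that held one. Among regions up to 200 bp from an in vitro row 28.1% were pieces of split peaks, against 9.31% beyond 10 kb. Counted by peak name, 19780 peaks had rows captured only in vivo and no row in a shared region.

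Rows captured only in vivo more often had a summit position beyond their own end than shared rows. As called by MACS2 a summit lies within its peak, so such rows do not span the peak as called. The row end is also what the overlap rule used, and a shortened row can overlap less, so this measure is not independent of the choice and is given without a test. As a mean over 12 chromosomes, a summit beyond the end was found in 28.1% (SD 2.24) of rows captured only in vivo. The same mean was 19.4% (SD 1.66) of shared rows and 22.7% (SD 1.92) of all in vivo rows. The difference of 8.75 percentage points (SD 1.64) was positive on 12 of 12 chromosomes. The share was higher in narrow rows, so the difference was also taken within 5 groups of equal row number by width, an alternative chosen after seeing the data. There it was 5.45 points (SD 1.69, positive on 12 of 12 chromosomes), with 36.0% of rows captured only in vivo against 31.3% of shared rows in the narrowest group, and 17.6% against 11.3% in the widest. How the rows came to differ from the peaks as called is not stated, and the part of this in the missing overlaps was not tested.

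Regions captured only in vivo lay in the outermost 1 Mb of a chromosome slightly more often than shared regions. Counted over all chromosomes together, 1410 regions captured only in vivo lay there, or 6.37%, with 5.82% of all in vivo rows there. As a mean over 12 chromosomes, the share was 6.06% (SD 1.4) of all in vivo rows. The same mean was 6.75% (SD 1.86) of regions captured only in vivo and 5.58% (SD 1.34) of shared regions. The difference of 1.17 points (SD 1.31) was positive on 8 of 12 chromosomes. An exact sign-flip permutation test over chromosomes, two-sided, gave p = 0.0107, and 0.0161 after Benjamini-Hochberg adjustment over 3 differences, the one in summits included. The difference in summits is tied to the rule, and with it in the family the adjusted value is smaller than without it. BioCyTASQ rows numbered 121 per Mb in segment 1, 163 in segment 4 and 106 in segment 10. Fewer in vivo rows can lack an overlap where in vitro rows are dense, so the rule ties this difference to that density. The test does not separate position from it. Rows met by the BG4/BioTASQ in vitro list alone had a share of 9.19% (SD 2.64), against 5.6% (SD 1.54) of rows shared with BioCyTASQ alone and 4.53% (SD 1.11) of rows in all 3 lists. These subgroups were not tested against regions captured only in vivo. The difference from all shared regions was largest on chromosome 10, with 9.38% of regions captured only in vivo against 6.07% of shared regions, and chromosome 7, with 8.08% against 5.01%, and was negative on chromosomes 1, 3, 6 and 9. In the outermost 0.5 Mb the difference was 0.583 points and did not pass the threshold of 0.05 (p = 0.0879, exact).

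How crowded the surroundings were differed little, and the direction depended on how it was counted. Within 10 kb on each side there were 3.37 other in vivo rows (SD 0.158) around regions captured only in vivo and 3.35 (SD 0.136) around shared regions, a difference of 0.0138 (SD 0.0556) that was positive on 7 of 12 chromosomes. The same exact test gave p = 0.404 before and after adjustment. The sign was the opposite under 2 alternatives. With 1 row for each peak name it was −0.0747 rows. That count kept 20314 of 22134 regions captured only in vivo and 31671 of 32763 shared regions. The regions dropped had another row of the same peak elsewhere and were not dropped evenly, so no p is given. The difference was −0.0712 when regions captured only in vivo within 500 bp of an in vitro row were left out and all shared regions kept. That filter used the distance that the rule used, so this value is given without a p. Within 50 kb there were 16.3 rows around regions captured only in vivo and 16.1 around shared regions, a difference of 0.194 (p = 0.00586, exact). All of these differences were small beside the mean. The rows of each region itself were left out of its count. That removed 1 row for each region captured only in vivo, but sometimes more for shared regions, which held 35366 rows in 32763 regions. The counts of the 2 groups are therefore not fully alike, and the p-values do not allow for this.

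**Figure D4:**
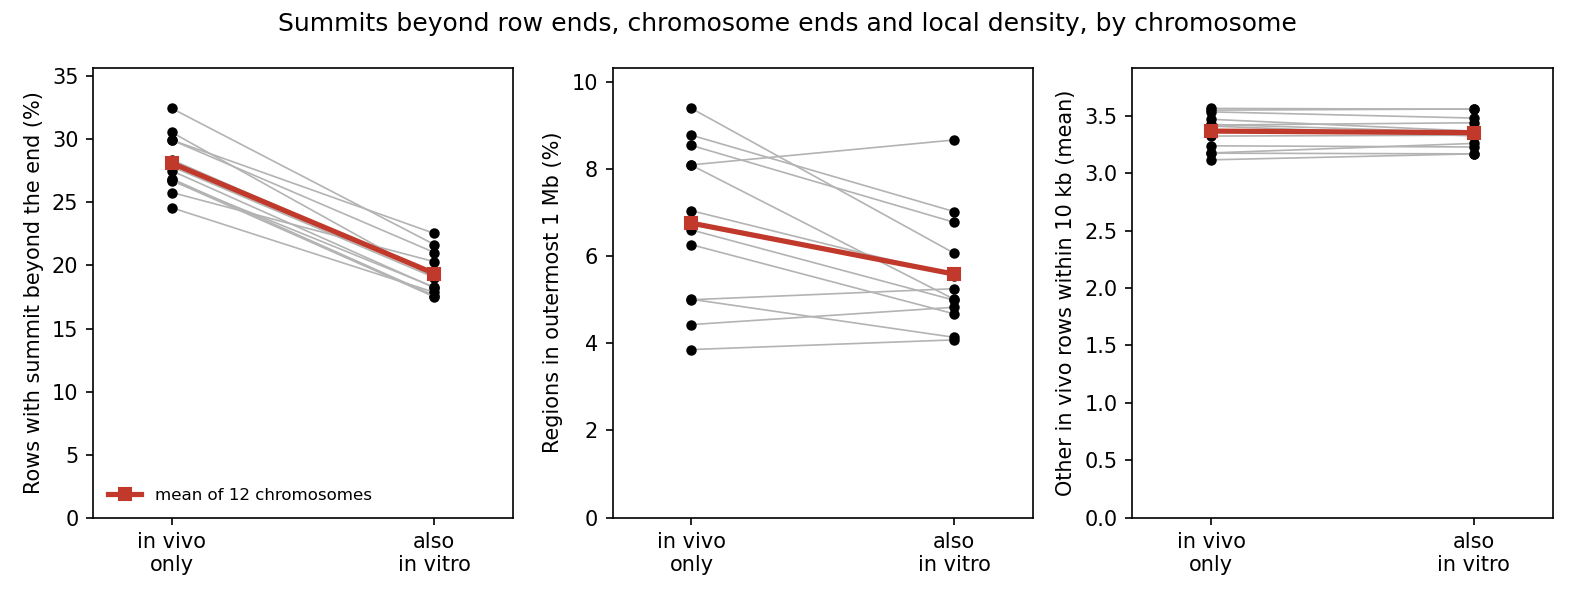
Values by chromosome for regions captured only in vivo (left) and in vivo rows or regions also in an in vitro list (right): rows with a summit beyond their end (%), regions in the outermost 1 Mb (%) and other in vivo rows within 10 kb (mean number). Black points joined by a line are 1 chromosome and red squares the mean of 12. The first measure is higher on the left on 12 of 12 chromosomes, the second on 8 and the third on 7.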

How the data were processed

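Per the submitters' processing notes, the authors used MACS2 2.1.1, SAMtools 1.5, Trim Galore 0.4.4, Picard and BWA. The genome build, parameters, control library and treatment of replicates are not given here by any label or header. The 4 deposited lists have no header and 10 columns in the narrow-peak order of MACS2. The deposited fold enrichment (a ratio to control), −log10 p, −log10 q and score are the values the authors gave each peak, and were compared within 1 list only. No p or q was recomputed, and the score was not used. Row starts, ends and summit offsets (other values) were as deposited, and printed coordinates count from 1.

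Here, 26 repeats in the BG4/BioTASQ list were dropped and regions were merged as described. Members, named-region rules and tests were chosen with earlier results of these data known. Named were the strongest region per chromosome by fold (the first along the chromosome where rows of 1 peak tied), the 5 highest by −log10 q (at most 1 per 100 kb), the 3 widest, nearest and farthest, the 3 richest 100 kb windows with ties, and rows just outside the rule. Regions of several rows did not occur. Longest runs, 1 Mb windows and chromosome segments were added. Pileup k and control level solve fold = (k + 1)/(control + 1) and the Poisson tail, and gave whole pileups, within 0.001 in −log10 p, for 99.998% of in vivo rows. Read totals per library were not analysed here, so depth is known only through these pileups. Chromosome length was the largest row end of any list (373 Mb in all). Differences were tested by flipping signs over chromosomes (exact permutation test, two-sided, 4096 sign assignments, smallest p 0.000488, threshold 0.05) with Benjamini-Hochberg adjustment. The difference in summits beyond the row end was computed in the same way but is given without its p, because the rule used the row end. Chromosomes are spatial units, not replicates. Planned comparisons of GC content, G-quadruplex motifs and genes were not run, for want of a genome of the build of the lists. Steps were tested on simulated data. Versions were SciPy 1.17.1, pandas 2.3.3, NumPy 2.4.6, Matplotlib 3.10.9 and Python 3.11.15.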

Additional observations from a re-analysis of the deposited data

How the results depend on the processing

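The number of regions captured only in vivo was 22134 and stayed within 1.5 times of it under 9 of 10 alternatives, from 16425 when rows were merged across gaps of up to 500 bp to 32532 with 200 bp windows at the summits. It was 47076 against the BG4/BioTASQ in vitro list alone and 25385 against BioCyTASQ in vitro alone. Requiring 50% of the shorter row gave 24305, and a −log10 q of at least 10 in vivo left 20003. The median fold ran from 3.97 to 4.36, the share at the control floor from 28.5% to 42.1%, and the excess of segment 10 over segment 4 from 9.59 to 13.6 points, against 11.4. The difference in summits beyond the row end kept its direction under 4 of 4 alternatives (5.45 to 9.84 points). The outermost 1 Mb difference was 0.583 points for 0.5 Mb, no longer past the threshold, and 2.42 for 2 Mb. The local density difference of 0.0138 rows became −0.0747 with 1 row for each peak name and 0.194 within 50 kb. It became −0.0712 without the regions captured only in vivo that lay within 500 bp of an in vitro row. The cause was not tested. Counting by peak name, the width groups, the ranges of median fold, control floor and segments, the 500 bp limit for summits and the −log10 q limit of 5 for the outermost 1 Mb were chosen after seeing the data. No paired analysis was possible because each capture has 1 list and none per replicate; for the same reason no replicate could be left out. Other windows and motif definitions for GC content, motifs and gene position were not run, with no genome of the build of the lists.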
